A study of Rattus norvegicus with 48 samples.

Results

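The 10 genes described here, Atf4, Atf3, Ddit3, Trib3, Ddit4, Sesn2, Chac1, Asns, Psat1 and Phgdh, belong to the ATF4 arm of the integrated stress response, and they were taken by symbol from the 30211 genes of the deposited expression table. All 10 were present in the table and all 10 passed the filter on low values. RNA was sequenced from 48 libraries of rat primary cortical cultures, 3 for each of 16 groups. The cultures were made from fetuses of Sprague-Dawley rats at 18 days, held both neurons and glia, and were used after 3 weeks in vitro. Groups were untreated cultures (Control) or cultures given cocaine (25 µM for 24 h), recombinant HIV-1 Tat 1-86 (6 ng/mL for 48 h), or Tat followed by cocaine (Tat-Cocaine). Each of 4 small molecules was given for 48 h, alone, with Tat, and with Tat before cocaine. They were 4-octyl itaconate (4OI, 250 µM), a cell-permeable ester of the metabolite itaconate; Amlexanox (25 µM), an inhibitor of the kinases TBK1 and IKK-epsilon; Tazemetostat (3 µM), an inhibitor of the histone methyltransferase EZH2; and Senicapoc (1 µM), a blocker of the potassium channel KCa3.1. The labels do not say whether the Control cultures received the vehicle or were kept for as long as the cultures given Tat and cocaine.

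In the integrated stress response, kinases that sense amino acid shortage, misfolded protein, heme shortage or viral RNA phosphorylate the translation factor eIF2. General translation then falls while the mRNA of the transcription factor ATF4 is translated better, so that ATF4 protein can rise with little change in Atf4 mRNA. ATF4 and its partners, among them ATF3 and CHOP (the product of Ddit3), raise genes for amino acid synthesis and uptake, and with lasting stress CHOP favours cell death. In the brain, de novo serine synthesis by PHGDH and PSAT1 is mainly a function of astrocytes, which pass serine to neurons.

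Values are CPM, read counts scaled to a common library size after TMM normalization, and fold changes are differences of group means of log2(CPM + 0.5), which understate the change of genes near 0. The depth behind them was about 17500000 to 29100000 reads per library, as read from the value of 1 read, and a member had between 40 reads (Trib3) and 12169 reads (Psat1) in its libraries. Nothing in the labels says that the 3 libraries of a group came from separate litters or preparations, so p-values measure the spread between these samples, which may be technical. Libraries of a group differed from each other more than by sampling noise (chi-square per degree of freedom 5.83 or more in all 48 pairs). The acute-phase gene Orm1, looked up after its values were seen, lay between 31.1 and 1029 CPM in the 30 libraries with Tat and between 0 and 3.18 CPM in the 18 without, so no library went against its Tat label. The cultures are labelled as neurons but carried markers of several cell types. The summed level of 10 neuron markers was 1088 to 4702 CPM, and that of 10 astrocyte markers was 5604 to 12936 CPM. Of the 5 endothelial markers found, Cldn5, Tie1 and Flt1 were at 0 in 25, 7 and 1 libraries, and Kdr and Cdh5 in 0. The highest value of any of the 5 was 5.72 CPM (Cdh5). In sums of markers 3 libraries stood apart. Cocaine replicate 3 had a summed level of 25922 CPM for 10 oligodendrocyte lineage markers, against 489 to 2854 CPM in the other libraries, and Amlexanox replicate 3 and Senicapoc replicate 2 had the lowest astrocyte sums of the libraries without Tat, 5604 and 7838 CPM. Libraries with Tat and a like astrocyte sum were kept, such as Tat-Cocaine-Tazemetostat replicate 2 (5732 CPM) and Tat-Tazemetostat replicate 2 (6370 CPM). Leaving out the 3 is thus a choice made only among libraries without Tat. Where a result turned on these 3 unusual libraries, its value without them is given beside it.

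Over the whole series, the group means of Ddit3, Trib3 and Psat1 spanned the widest folds among the members. The group means of Ddit3 spanned 4.89-fold, from 25.96 CPM in 4OI to 127 CPM in Tat-Cocaine-Tazemetostat. Those of Trib3, which had the widest spread within groups, spanned 3.33-fold, from 3.55 CPM in Tat-Senicapoc to 11.8 CPM in Tat-Tazemetostat. Those of Psat1 spanned 3.11-fold, from 115 CPM in Tat-Cocaine-Tazemetostat to 358 CPM in Tazemetostat, and those of Phgdh 2.38-fold, from 132 CPM in Tat-Tazemetostat to 315 CPM in 4OI. Atf4 itself spanned 1.56-fold, from 179 CPM in Cocaine to 280 CPM in Senicapoc, Sesn2 spanned 1.503-fold and Asns 1.57-fold. When the 16 groups were put in order of their mean, the libraries of neighbouring groups overlapped at every step for each of the 10 members, so the order within a set of similar groups is not resolved. The spread within groups differed between members, with a median coefficient of variation of 10.1% for Sesn2, 10.2% for Asns and 10.8% for Atf4, against 28.6% for Atf3 and 41.3% for Trib3.

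Tat alone raised Ddit3, the gene of the pro-apoptotic factor CHOP. Ddit3 was at 77.2, 71.8 and 80.0 CPM in the 3 Tat libraries and at 26.2, 37.4 and 21.0 CPM in the Control libraries. The groups did not overlap, and the difference of 1.46 ± 0.28 on the log2 scale (SE) passed the test (limma adjusted p = 1.95e-04). In Tat-Cocaine cultures Ddit3 stood at 71.0, 108 and 82.5 CPM, again above each Control library, with a log2 difference of 1.63 ± 0.28 from Control (limma adjusted p = 7.71e-05). Both calls held in each of the 10 other settings and with each of the 6 libraries left out in turn. The 3 libraries that stood apart are not part of these comparisons.

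The genes of serine synthesis went the other way. Psat1, whose product is the phosphoserine aminotransferase, was at 126, 115 and 119 CPM with Tat and at 271, 295 and 470 CPM in Control. Every Tat library was thus below every Control library, and Psat1 fell by 1.48 ± 0.30 on the log2 scale (limma adjusted p = 4.57e-04). In Tat-Cocaine cultures it was at 138, 125 and 106 CPM, a fall by 1.45 ± 0.30 from Control (limma adjusted p = 8.71e-04). Phgdh encodes the dehydrogenase of the first step of the same pathway, and it was at 148, 144 and 150 CPM with Tat and at 225, 204 and 277 CPM in Control. It fell by 0.66 ± 0.21 with Tat (limma adjusted p = 0.0226), a call that was lost without Tat replicate 1 or 2 or Control replicate 1 or 3, with adjusted p up to 0.1. Against Control, Phgdh in Tat-Cocaine cultures (183, 148 and 146 CPM) differed by -0.56 ± 0.21 and missed the threshold (limma adjusted p = 0.0716). Deviations from the group means correlated between same-numbered samples of these 2 groups (r of 0.507, 0.2 and 0.545), though no label gives a pairing. With a replicate effect shared by all 48 libraries (the replicate block) the Phgdh difference passed (limma adjusted p = 0.0437). It also passed with the 3 unusual libraries left out of the fit (limma adjusted p = 0.00557).

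In the Tat comparison 3 of the 10 members were therefore called, where 21.3% of all 15890 genes tested were called, and in the Tat-Cocaine comparison 2 of 10, where 14.9% were. These shares are close to the background, so the list as a whole did not stand out. The median log2 difference of the members was -0.16 with Tat and 0.10 with Tat-Cocaine, beside 0.01 over all genes in both. Atf4 mRNA was not called with Tat, at 217, 198 and 193 CPM against 197, 215 and 194 CPM in Control, a log2 difference of 0.00 with an interval from -0.34 to 0.35. The values of Asns, the asparagine synthetase, were 54.8, 61.3 and 67.2 CPM with Tat and 63.4, 64.6 and 49.6 CPM in Control, which overlap.

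**Figure D1:**
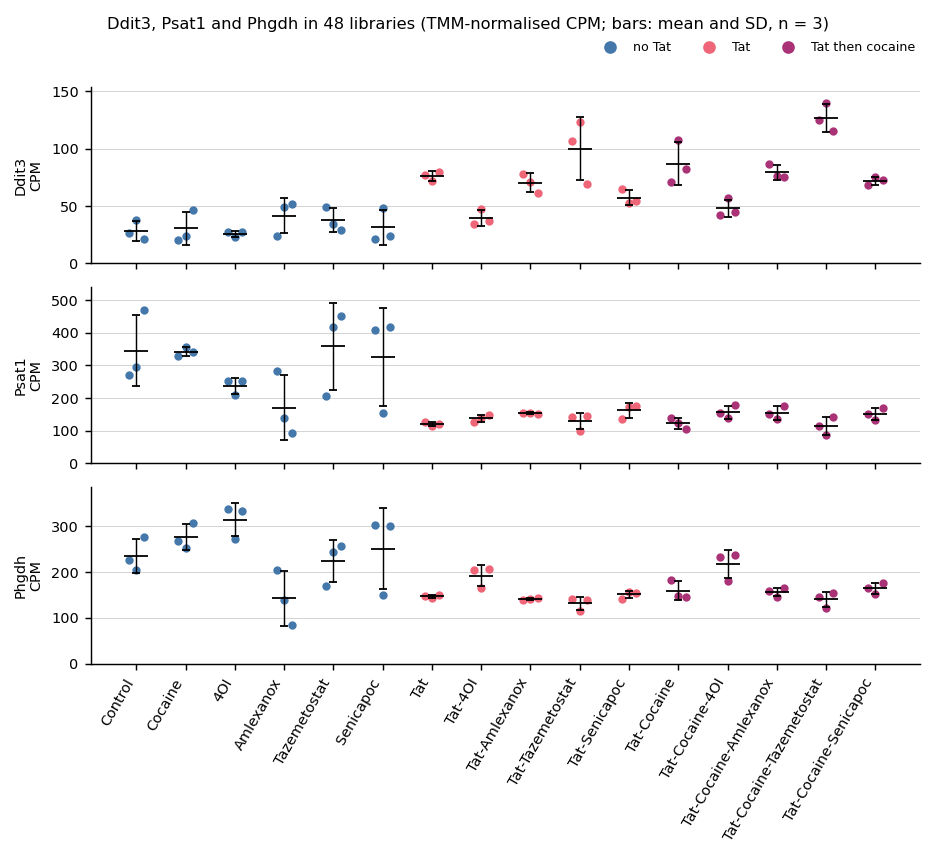
Ddit3, Psat1 and Phgdh in each of the 48 libraries, as TMM-normalised CPM on a linear axis that starts at 0, with 16 groups along the horizontal axis. Points are libraries, bars are the mean and SD of 3, and colours mark cultures without Tat, with Tat, and with Tat followed by cocaine. Ddit3 lies at 20.8 to 51.6 CPM without Tat and at 34.4 to 140 CPM with it. Psat1 is widely spread in several groups without Tat, at 271 to 470 CPM in Control, 92.4 to 282 CPM in Amlexanox, 206 to 452 CPM in Tazemetostat and 154 to 417 CPM in Senicapoc.

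The Tat effect could be followed in 5 backgrounds, with no compound and with each of the 4 compounds, always against cultures given the same compound without Tat. Averaged over the 5, 1 member rose and 4 fell, in a comparison in which 56.5% of all genes were called (29.9% higher and 26.7% lower, or 24% and 34.8% with quantile normalization, under which the members' counts were again 1 and 4). Ddit3 rose by 1.04 ± 0.12 on the log2 scale (limma adjusted p = 1.24e-08). Psat1 fell by 0.91 ± 0.13 (limma adjusted p = 8.46e-07) and Phgdh fell by 0.54 ± 0.10 (limma adjusted p = 1.43e-05). Ddit4, an mTORC1 inhibitor also known as REDD1, fell by 0.33 ± 0.12 (limma adjusted p = 0.0172). These 4 calls held in every other setting and without each of the 30 libraries in turn. Without the 3 unusual libraries the differences were 1.16, -1.08, -0.67 and -0.37 in the order given. All 3 are libraries without Tat, set apart in part by a low astrocyte sum. That sum went with the deviations of Psat1, Phgdh and Ddit3, so for these genes the setting is no independent check. Chac1, which encodes an enzyme that degrades glutathione, fell by 0.24 ± 0.10 (limma adjusted p = 0.0419), but this call was lost with no filter on low values and without the 3 libraries with unusual marker sums (-0.17, adjusted p = 0.128). It was also lost when any 1 of 14 of the 30 libraries was left out, with adjusted p up to 0.0972. These were replicates 1 and 2 of Tat and of Tat-Amlexanox, replicates 1 and 3 of 4OI and of Tat-Senicapoc, replicate 1 of Control, Tazemetostat and Tat-Tazemetostat, replicate 2 of Senicapoc, and replicate 3 of Amlexanox and Tat-4OI. Without those 3 libraries Atf3 (0.39, adjusted p = 0.0282) and Asns (0.13, adjusted p = 0.0461) passed the threshold as higher with Tat. Atf4, Trib3 and Sesn2 differed by -0.10, -0.29 and 0.01 over the 5 backgrounds and were not called.

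Within the single backgrounds, the Ddit3 difference between cultures with and without Tat was 0.60 ± 0.28 with 4OI, 0.83 ± 0.28 with Amlexanox, 1.40 ± 0.28 with Tazemetostat and 0.95 ± 0.28 with Senicapoc. It was called in the last 3. For Psat1 the difference was -0.78 ± 0.30 with 4OI, 0.01 ± 0.30 with Amlexanox, -1.41 ± 0.30 with Tazemetostat and -0.88 ± 0.30 with Senicapoc, and it was called with Tazemetostat and Senicapoc. With 4OI the Psat1 difference was not called (limma adjusted p = 0.128), but it passed when the groups compared were fitted alone (limma adjusted p = 0.0106) and without the 3 unusual libraries (limma adjusted p = 0.0326). Phgdh differed by -0.71 ± 0.21, 0.08 ± 0.21, -0.74 ± 0.21 and -0.66 ± 0.21 in the same order and was called with 4OI, Tazemetostat and Senicapoc. Members called in these 4 comparisons numbered 2, 3, 3 and 3 of 10, beside 5.18%, 39.6%, 16.1% and 16% of all genes. When only the groups compared were fitted, 1 of these calls with Tazemetostat was kept, that of Ddit3, while Psat1 (adjusted p = 0.0546) and Phgdh (0.06) lost theirs. In the same setting no call was kept with Amlexanox (Ddit3 0.0546, Ddit4 0.0678, Chac1 0.0772) or Senicapoc (Ddit3 0.0843, Psat1 0.172, Phgdh 0.152), nor that of Asns with 4OI (0.0613). With no filter on low values the adjusted p was 0.0614 for Psat1 with Senicapoc, 0.0623 for Phgdh and 0.0555 for Asns with 4OI, and 0.0623 for Ddit4 and 0.0573 for Chac1 with Amlexanox.

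Of the unusual libraries, Senicapoc replicate 2 and Amlexanox replicate 3 enter these comparisons. Both were set apart by a low astrocyte sum, and no library with Tat was left out. Without the 3 unusual libraries the differences with Senicapoc were 1.31 for Ddit3, -1.35 for Psat1 and -0.997 for Phgdh, all called. With Amlexanox they were 1.02 for Ddit3 and -0.86 for Ddit4, both called, while Chac1 (-0.33, adjusted p = 0.267), Psat1 (-0.36, adjusted p = 0.294) and Phgdh (-0.25, adjusted p = 0.224) were not called. The signs of Psat1 and Phgdh with Amlexanox therefore turned on Amlexanox replicate 3.

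Many of these calls rested on few libraries. The Tazemetostat calls of Ddit3 and Psat1 held when any 1 of the 6 libraries was left out, and that of Phgdh was lost without Tazemetostat replicate 2 or 3 or Tat-Tazemetostat replicate 2 (adjusted p up to 0.101). With Senicapoc, Psat1 and Phgdh lost their calls without Senicapoc replicate 1 or 3 or any 1 of the Tat-Senicapoc libraries (adjusted p up to 0.228 and 0.197), and Ddit3 without Senicapoc replicate 1 or 3 or Tat-Senicapoc replicate 1 (up to 0.132). With Amlexanox, the Ddit3 call was lost without Amlexanox replicate 1 or Tat-Amlexanox replicate 1 or 2 (up to 0.17). The other members called there were Ddit4 (-0.68 ± 0.27, limma adjusted p = 0.0419) and Chac1 (-0.58 ± 0.22, limma adjusted p = 0.0387). Ddit4 was lost without replicate 1 or 2 of either group (adjusted p up to 0.229), and Chac1 without Amlexanox replicate 3 or Tat-Amlexanox replicate 1 or 2 (up to 0.297). With 4OI the other member called was Asns, higher by 0.45 ± 0.13 (limma adjusted p = 0.0387), which was lost without any 1 of the 6 libraries (adjusted p 0.0503 to 0.271). Phgdh with 4OI was lost without 4OI replicate 1 or 3 or any 1 of the Tat-4OI libraries (adjusted p up to 0.233).

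**Figure D2:**
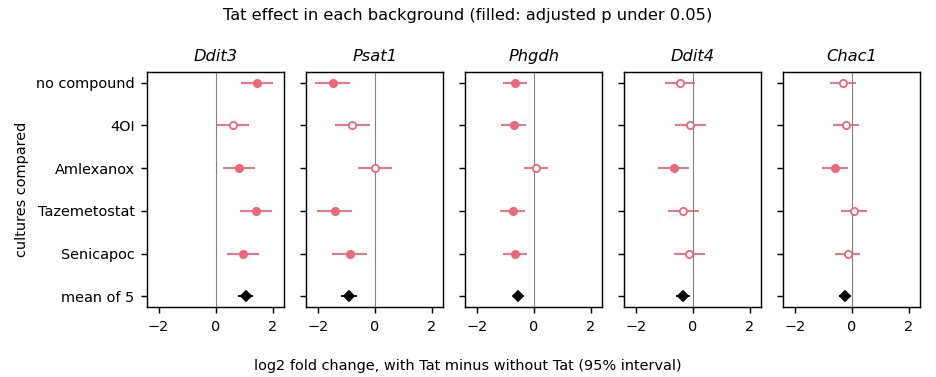
Difference between cultures with and without Tat for 5 members, as log2 fold change with its 95% interval on the horizontal axis, in cultures with no compound, with each compound, and as the mean of the 5 (black diamond). Filled symbols passed the adjusted threshold of 0.05. Ddit3 lies to the right of 0 in each background, from 0.60 to 1.46, whereas Psat1 and Phgdh lie to the left of 0 except with Amlexanox, where they are at 0.01 and 0.08.

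Other markers moved with Tat in the same libraries. The astrocyte sum was 8933, 6737 and 6824 CPM with Tat and 10046, 9593 and 10410 CPM in Control, which do not overlap, and 4 of 10 astrocyte markers fell and none rose in that comparison (Ntsr2, Gja1, Aldoc and Gfap). Averaged over the 5 backgrounds, 5 astrocyte markers fell and 1 rose (6 and 0 with quantile normalization), 6 of 10 neuron markers fell, and 5 of 10 microglia and macrophage markers rose while 1 fell. No oligodendrocyte lineage marker and none of 3 tested endothelial markers was called by limma, and of 5 tested fibroblast markers 2 rose and 1 fell. Of the astrocyte markers, Gjb6 was at 0 in 2 libraries. In bulk RNA, fewer cells of a type and less RNA per cell cannot be told apart, and the part of the cell makeup in the Psat1, Phgdh and Ddit3 values was not tested.

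The pathway around the members moved in parts and in both directions with Tat. Averaged over the 5 backgrounds, 7 of 12 genes of the eIF2 kinases, eIF2 and its exchange factor eIF2B rose and 2 fell. Eif2ak2, the kinase PKR that senses double-stranded RNA, rose by 0.64, and Eif2ak3, the endoplasmic reticulum kinase PERK, fell by 0.18. Of 18 cytosolic aminoacyl-tRNA synthetases, many of which are ATF4 targets, 13 rose, by 0.10 to 0.27, and 1 fell (median of the list 0.14). With median-ratio scaling 11 of them rose and 2 fell. Of 10 amino acid transporters 2 rose and 5 fell. Slc1a5, a glutamine transporter, was up by 1.22 and the arginine transporter Slc7a1 by 0.39, while Slc7a5, a chain of the leucine transporter LAT1, was down by 0.47.

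Among 12 tested genes of serine, one-carbon and other amino acid synthesis 3 rose and 3 fell. The folate genes Aldh1l2, Shmt1 and Mthfd2 rose, by 2.302, 0.95 and 0.61. Cbs, which uses serine to make cystathionine, fell by 1.20, and Psph, which completes serine synthesis after PSAT1, fell by 0.31. Of 10 tested regulators and secreted factors linked to ATF4, 4 rose and 2 fell. Cebpb, a partner of ATF4 and CHOP that is also an inflammatory transcription factor, rose by 1.55, while the secreted factor Stc2 fell by 0.35. Of 16 endoplasmic reticulum genes of the ATF6 and XBP1 arms 7 rose and 1 fell, among them the transcription factor Xbp1 (0.35), the chaperone Calr (0.35) and the degradation factor Edem1 (0.48).

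Ddit4 and Sesn2 also answer to p53, glucocorticoids or low oxygen, and those targets moved both ways too. With Tat 2 of 8 tested p53 targets rose and 2 fell, 4 of 12 glucocorticoid and hypoxia targets rose and 6 fell, 2 of 10 immediate-early genes rose and 6 fell, and 3 of 9 tested targets of the antioxidant factor NRF2 rose and 4 fell. All these values are log2 differences from a comparison in which 56.5% of genes were called.

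With cocaine no change of a member was detectable with 3 libraries a group. None of the 10 was called in Cocaine against Control by limma, and none had an unadjusted p under 0.05, in a comparison that called 0.201% of all genes. The differences ranged from -0.37 (Trib3) to 0.30 (Atf3). Without the 3 unusual libraries, among them Cocaine replicate 3, they ranged from -1.01 (Trib3) to 0.16 (Phgdh). Atf3 was then at -0.05 and Ddit3 at -0.30 (0.06 with all libraries), and each limma adjusted p was 0.994 or more. Trib3, which encodes a pseudokinase that binds ATF4 and AKT, was at 1.89, 3.15 and 10.7 CPM with cocaine and at 3.87, 10.6 and 3.86 CPM in Control, so 1 library of each group was high. In Tat-Cocaine against Tat, again 0 of 10 were called and 0 had an unadjusted p under 0.05 (0.0189% of all genes called). The widest interval of a member in these comparisons reached 1.07 to either side on the log2 scale (Trib3). That interval is not adjusted for the number of genes tested, so a call of Trib3 needed a larger difference still. Averaged over Tat cultures with and without the 4 compounds, cocaine after Tat gave 0 calls of 10 by limma (2 at an unadjusted p under 0.05), beside 4.55% of all genes. Ddit4 came closest, lower by 0.39 ± 0.12 (limma adjusted p = 0.0503), and it crossed the threshold in 6 of the 10 other settings (adjusted p 0.0395 to 0.0494). It also crossed it when any 1 of 10 of the 30 libraries was left out, with adjusted p down to 0.0207 without Tat replicate 1. The other 9 were Tat-Cocaine replicates 1 and 2, Tat-Amlexanox replicate 1, Tat-Tazemetostat replicate 2, Tat-4OI replicate 2, Tat-Senicapoc replicate 3, Tat-Cocaine-Amlexanox replicate 3, Tat-Cocaine-Tazemetostat replicate 2 and Tat-Cocaine-4OI replicate 1. That Ddit4 difference was widest with Senicapoc, at 65.5, 63.6 and 58.6 CPM with cocaine against 140, 148 and 92.5 CPM without, which did not overlap (-0.99 ± 0.27, limma adjusted p = 0.0935). Of the members, 0 were called by limma between cultures with Tat and cocaine and cultures with Tat given the same compound, for each of the 4 compounds, where 0%, 0%, 0% and 0.183% of all genes were called with 4OI, Amlexanox, Tazemetostat and Senicapoc. In these 4 comparisons 0, 0, 0 and 3 members had an unadjusted p under 0.05. Ddit3 was higher by 0.27 with cocaine over the Tat cultures and passed only when the groups compared were fitted alone (limma adjusted p = 0.0365). Of the targets linked to Ddit4, 2 of 8 tested p53 targets rose and 1 fell and 0 of 12 glucocorticoid and hypoxia targets rose and 3 fell with cocaine over the Tat cultures, and of 10 immediate-early genes 1 rose and 5 fell. Of 10 neuron markers 3 fell, and their part in the Ddit4 value was not tested.

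4OI lowered Ddit3 and raised Phgdh and Asns. Averaged over cultures without Tat, with Tat and with Tat-Cocaine, 3 of 10 members were called, beside 22.8% of all genes (11% higher and 11.8% lower). Ddit3 fell by 0.62 ± 0.16 on the log2 scale (limma adjusted p = 0.00383), and Phgdh rose by 0.42 ± 0.12 (limma adjusted p = 0.0121), and both calls held in the other settings and without each of the 18 libraries. Asns rose by 0.23 ± 0.08 (limma adjusted p = 0.0247), a call that was lost without any 1 of 5 of the 18 libraries (Tat replicate 1, Control replicate 3, Tat-Cocaine replicate 3, 4OI replicate 3 or Tat-4OI replicate 2; adjusted p up to 0.0772).

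In the presence of Tat, Ddit3 was at 34.4, 47.5 and 37.3 CPM with 4OI, all below the 71.8 to 80.0 CPM of Tat alone, a fall by 0.94 ± 0.28 (limma adjusted p = 0.0175). The call was lost without Tat replicate 2, Tat-4OI replicate 1 or Tat-4OI replicate 3, with adjusted p up to 0.0917. With Tat and cocaine Ddit3 was at 42.5, 56.7 and 44.5 CPM with 4OI and at 71.0 to 108 CPM without, again with no overlap, and the difference of -0.85 ± 0.28 just missed the threshold (limma adjusted p = 0.0542). It passed without the 3 libraries with unusual marker sums (limma adjusted p = 0.0105). In cultures without Tat, where Ddit3 was low, 4OI (27.2, 23.01 and 27.7 CPM) overlapped with Control. The effect of 4OI with Tat differed from that without by -0.86 ± 0.39, and with Tat-Cocaine from that in Control by -0.76 ± 0.39, and neither difference was called (limma adjusted p = 0.384 and 0.584). In these tests of a difference between effects 0 of 10 members were called by limma (2 and 0 at an unadjusted p under 0.05), beside 0.497% and 0.113% of all genes.

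The rise of Asns was clearest with Tat, at 79.3, 94.6 and 75.7 CPM with 4OI against 54.8, 61.3 and 67.2 CPM without (0.44 ± 0.13, limma adjusted p = 0.0208). That call was lost when the groups compared were fitted alone (adjusted p = 0.0658) and without Tat replicate 1, Tat replicate 2 or Tat-4OI replicate 2. Phgdh with 4OI was at 338, 273 and 333 CPM in cultures without Tat, at 203, 165 and 207 CPM with Tat, and at 234, 181 and 238 CPM with Tat-Cocaine, where the same cultures without 4OI had 204 to 277, 144 to 150 and 146 to 183 CPM. In the Tat-Cocaine cultures the difference of 0.45 was not called (limma adjusted p = 0.214) but passed without the 3 unusual libraries (limma adjusted p = 0.0407). Psat1 did not follow Phgdh, since its pooled difference with 4OI was 0.02 ± 0.17 and its sign differed between backgrounds, from -0.50 in cultures without Tat, where 4OI (253, 210 and 252 CPM) lay below each Control library, to 0.20 and 0.35 with Tat and Tat-Cocaine. None of these 3 Psat1 differences was called. Of the members, 0, 2 and 0 were called in the 3 backgrounds, beside 3.15%, 15.6% and 7.36% of all genes. By limma, 1, 2 and 2 had an unadjusted p under 0.05.

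Genes of the pathway lists also changed with 4OI. Over the 3 backgrounds 22.8% of all genes were called, and 3.15%, 15.6% and 7.36% in Control, Tat and Tat-Cocaine cultures. All 9 tested targets of NRF2 rose in each of the 3 backgrounds, and averaged over them Hmox1, the heme oxygenase, rose by 2.53 ± 0.13 and Nqo1, a quinone reductase, by 2.05 ± 0.10. Of the 10 amino acid transporters 6 rose and none fell. Slc7a11, the cystine importer xCT and a target of both NRF2 and ATF4, rose by 3.01, its partner chain Slc3a2 rose by 0.93 and Slc1a4, a neutral amino acid transporter that carries serine, rose by 1.49. By contrast 2 of 18 tRNA synthetases rose, and of the chaperones 1 rose and 2 fell, with Sdf2l1 down by 0.89. Of the eIF2 list 3 rose and 1 fell, with Eif2ak2 down by 0.57. Of the serine and amino acid synthesis list 1 rose and 1 fell, and so did 1 each of the regulators linked to ATF4. Of the p53 targets 3 of 8 rose, of the glucocorticoid and hypoxia targets 1 rose and 3 fell of 12, and of the immediate-early genes 1 of 10 rose. Marker sums moved too, since 7 of 10 microglia and macrophage markers fell and 4 of 10 astrocyte markers rose with 4OI, and 2 of 5 tested fibroblast markers fell (median of that list -0.70). Over the 16 group means Ddit3 had r of 0.84 with the fibroblast sum, -0.77 with the astrocyte sum and 0.64 with the microglia and macrophage sum. Over the deviations of 48 libraries from their group means the values were -0.28, -0.62 and 0.38 in the same order. The part of the cell makeup in the Phgdh and Ddit3 values was not tested.

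**Figure D3:**
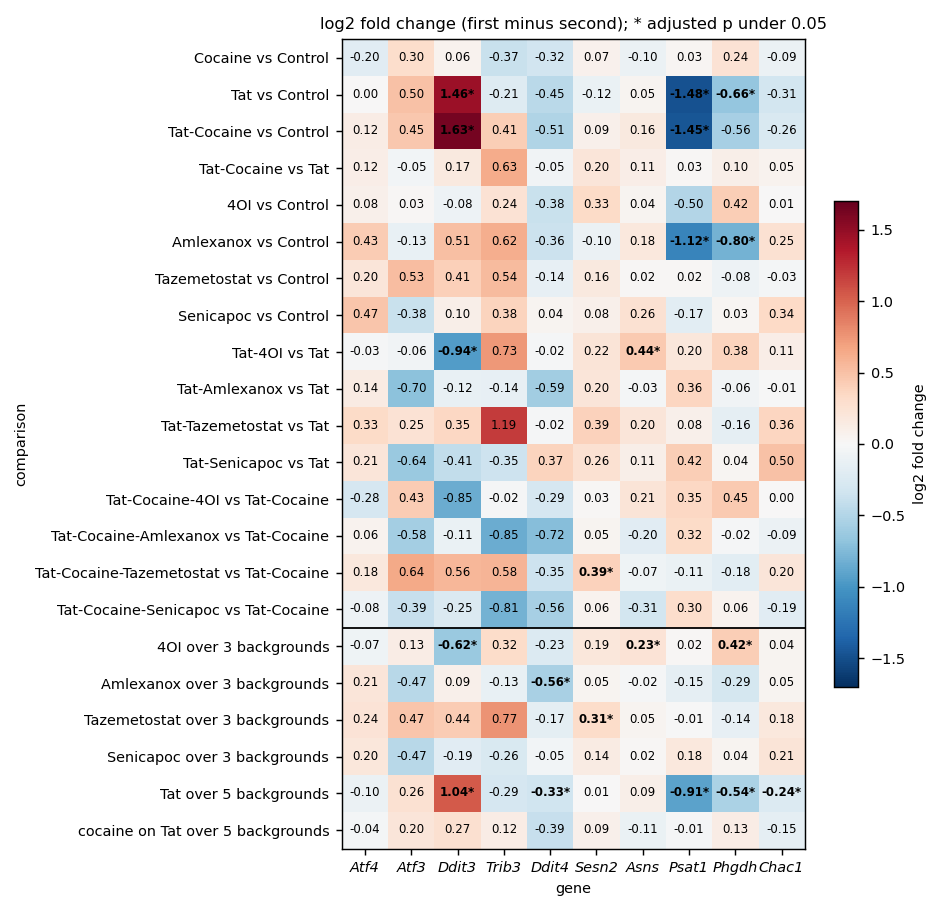
log2 fold change of each of the 10 members (columns) in 16 comparisons of 2 groups and, under the line, 6 averages over backgrounds (rows). Red marks higher and blue lower values in the first-named cultures, and an asterisk marks an adjusted p under 0.05. The Tat rows hold the extremes, 1.63 for Ddit3 and -1.48 for Psat1, and the columns of Atf4, Atf3 and Trib3 hold no asterisk.

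Amlexanox alone lowered the serine synthesis genes, but its libraries did not behave alike. Psat1 was at 282, 139 and 92.4 CPM in the Amlexanox libraries against 271, 295 and 470 CPM in Control, and Phgdh was at 205, 138 and 83.7 CPM against 225, 204 and 277 CPM. In both genes replicate 1 was inside the Control range and replicates 2 and 3 were below it. Psat1 fell by 1.12 ± 0.30 (limma adjusted p = 0.0133) and Phgdh fell by 0.80 ± 0.21 (limma adjusted p = 0.0123), and these 2 calls of 10 members stood beside 11.4% of all genes. Both were lost without Amlexanox replicate 3 (Psat1 -0.76, adjusted p = 0.237; Phgdh -0.47, adjusted p = 0.274) or Control replicate 3, and Psat1 also without Amlexanox replicate 2. Without the 3 libraries with unusual marker sums the adjusted p was 0.119 for Psat1 and 0.115 for Phgdh. When the other groups were left out of the fit neither passed (adjusted p = 0.282 and 0.288). The astrocyte sum of the same libraries was 12260, 8619 and 5604 CPM, in the same order as Psat1 and Phgdh, and its part in these values was not tested. Ddit3 was at 23.9, 48.8 and 51.6 CPM, the reverse order. Atf4 was at 230, 250 and 350 CPM, above each Control library (194 to 215 CPM), by 0.43 ± 0.17, which did not pass (limma adjusted p = 0.0934), and by 0.25 without Amlexanox replicate 3.

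In cultures given Tat, Psat1 was at 155, 156 and 152 CPM with Amlexanox against 115 to 126 CPM with Tat alone, a difference of 0.36 ± 0.30 that was not called (limma adjusted p = 0.692). The Amlexanox effect on Psat1 in Tat-Cocaine cultures exceeded that in Control cultures by 1.44 ± 0.42 (limma adjusted p = 0.0303), 1 of 10 members in a test that called 9.32% of all genes. For Tat cultures the same difference was 1.48 ± 0.42 and missed the threshold (limma adjusted p = 0.0543), and 0 members were called there by limma (2 at an unadjusted p under 0.05), beside 1.84% of all genes. It passed with the replicate block (limma adjusted p = 0.0337), and without the 3 unusual libraries it was 1.12 (limma adjusted p = 0.145). Without the 3 unusual libraries the difference for Tat-Cocaine was 1.076 and did not pass (adjusted p = 0.0815). That call was also lost when the other groups were left out of the fit (adjusted p = 0.117) and without Control replicate 3, Tat-Cocaine replicate 1 or 2, Amlexanox replicate 2 or 3, or Tat-Cocaine-Amlexanox replicate 1 or 3 (adjusted p 0.0552 to 0.168). No member was called by limma in Tat-Amlexanox against Tat or in Tat-Cocaine-Amlexanox against Tat-Cocaine, with 1 of 10 at an unadjusted p under 0.05 in each, beside 0.837% and 0.925% of all genes.

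Averaged over the 3 backgrounds, Amlexanox lowered Ddit4 by 0.56 ± 0.15 (limma adjusted p = 0.0195), the 1 member called, beside 7.99% of all genes. Ddit4 was at 53.6, 52.6 and 61.6 CPM in Tat-Cocaine-Amlexanox, all below the 104, 110 and 69.1 CPM of Tat-Cocaine. In Tat-Amlexanox it was at 47.2, 62.4 and 88.1 CPM against 63.3, 92.4 and 151 CPM with Tat, which overlap. The pooled call was lost when the other groups were left out of the fit (adjusted p = 0.11), without the 3 libraries with unusual marker sums (adjusted p = 0.056) and without 4 of the 18 libraries (Tat replicate 3, Control replicate 2, Amlexanox replicate 3 or Tat-Amlexanox replicate 1; adjusted p up to 0.062).

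Tazemetostat raised Sesn2, which encodes a leucine sensor that restrains mTORC1. Averaged over the 3 backgrounds the rise was 0.31 ± 0.08 (limma adjusted p = 0.0188), the 1 member called, beside 11.4% of all genes. The call was lost without Tat replicate 3, Control replicate 1 or Tat-Tazemetostat replicate 2 (adjusted p up to 0.074) and when the other groups were left out of the fit (adjusted p = 0.0634). In Tat-Cocaine-Tazemetostat Sesn2 was at 87.0, 97.4 and 84.3 CPM, above the 68.3, 66.4 and 69.9 CPM of Tat-Cocaine, by 0.39 ± 0.15 (limma adjusted p = 0.0433). That comparison called 28.7% of all genes and 1 of 10 members, and the call was lost without any 1 of the 6 libraries (adjusted p 0.0508 to 0.173). Trib3 was higher on average by 0.77 ± 0.30, Atf3 by 0.47 and Ddit3 by 0.44 ± 0.16, none of them called (limma adjusted p = 0.0826, 0.114 and 0.0636), although 5 members had an unadjusted p under 0.05. With the replicate block Atf3 (limma adjusted p = 0.0276) and Ddit3 (limma adjusted p = 0.0408) passed, and without the 3 unusual libraries Ddit3 did (limma adjusted p = 0.0231). The numbers were taken to pair the samples of Tazemetostat and Control, 1 of the 3 backgrounds, although no label gives a pairing. Ddit3 reached the series' highest levels in Tat-Cocaine-Tazemetostat, at 125, 140 and 115 CPM, each above the Tat-Cocaine libraries. That difference of 0.56 ± 0.28 passed only without the other groups (adjusted p = 0.0431) and without the 3 libraries with unusual marker sums (adjusted p = 0.0465).

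Beside the members, 8 of 16 endoplasmic reticulum chaperones and folding factors rose with Tazemetostat over the 3 backgrounds and none fell, and 11 rose in the Tat-Cocaine comparison. Hspa5, the chaperone BiP, rose by 0.60 over the 3 backgrounds and by 0.84 in that comparison, and Sdf2l1, an HSPA5 cofactor, by 1.01 and 1.61. Of the amino acid transporters 0 of 10 were called over the 3 backgrounds by limma. In the Tat-Cocaine comparison the neuron sum was 1389, 1088 and 1649 CPM with Tazemetostat against 2973, 2845 and 2319 CPM without, with 7 of 10 neuron markers lower and 5 of 10 microglia and macrophage markers higher. The microglia and macrophage sum was 3063, 4299 and 2714 CPM against 1989, 1209 and 1818 CPM. The oligodendrocyte lineage sum was 707, 489 and 792 CPM against 2518, 1531 and 1045 CPM, with 4 of 10 of its markers lower, and 2 of 5 tested fibroblast and 1 of 3 tested endothelial markers were lower too. None of the 3 pairs of sums given overlapped, and the part of the markers in the Sesn2 and Ddit3 values was not tested. In Tazemetostat and in Tat-Tazemetostat against their own controls no member was called by limma, with 0 and 2 of 10 at an unadjusted p under 0.05, beside 0% of all genes in both. The effect of Tazemetostat with Tat or with Tat-Cocaine was not found to differ from that in Control for any member by limma, with 0 of 10 at an unadjusted p under 0.05 and 0% of all genes called in both tests.

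Senicapoc gave no calls among the members by limma, alone, with Tat, with Tat-Cocaine or averaged over the 3, where 0%, 0.409%, 0.0441% and 1.16% of all genes were called. In these 4 comparisons 1, 1, 2 and 1 of the 10 members had an unadjusted p under 0.05. In the tests of its effect with Tat or Tat-Cocaine against that in Control 0 members were called by limma (0 and 2 at an unadjusted p under 0.05), beside 0% of all genes in both. Atf4 was at 271, 307 and 262 CPM with Senicapoc alone, above each Control library (0.47 ± 0.17, limma adjusted p = 0.472). Without the 3 unusual libraries, among them Senicapoc replicate 2, the Atf4 difference was 0.40 (limma adjusted p = 0.429). In that setting the Psat1 difference went from -0.17 to 0.30 and that of Ddit3 from 0.10 to -0.26, and none of these was called. Psat1 was at 407, 154 and 417 CPM, Phgdh at 304, 150 and 300 CPM, and Ddit3 at 21.6, 48.7 and 24.0 CPM in the Senicapoc libraries, so replicate 2, the library with a low astrocyte sum (7838 CPM against 11524 and 11602 CPM), was low in the first pair and high in Ddit3. In Tazemetostat alone a like split was seen, with replicate 1 at 206 CPM of Psat1 and 49.2 CPM of Ddit3 against 417 and 452 CPM and 34.2 and 29.01 CPM in the others. Its astrocyte sum was the lowest of its group, 10879 CPM against 12762 and 11694 CPM. The part of the astrocyte sum in these splits was not tested.

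These splits were part of a wider pattern in which some pairs of members varied together between the libraries of a group. The library with the most Trib3 was also the one with the most Asns in 14 of 16 groups, and the one with the most Ddit3 in 13 of 16. Psat1 and Phgdh shared their lowest library in 12 of 16 groups and their highest in 10, and the library with the least Trib3 was the one with the most Psat1 in 12. These are among the higher counts of the 45 pairs, while Atf4 and Ddit4 shared their highest library in 4 groups. No like count was made for other genes. Over the deviations of all 48 libraries from their group means, Pearson's r was 0.92 for Psat1 with Phgdh, 0.84 for Ddit3 with Trib3, 0.81 for Atf3 with Trib3, 0.79 for Asns with Trib3 and -0.71 for Ddit3 with Psat1. These coefficients describe 48 points that share libraries, scaling and cell makeup, and of the 45 pairs of members 12 had r above 0.5 and 7 had r below -0.5, with a median of 0.19. Some pairs were near 0, such as Asns with Sesn2 (-0.01) and Ddit3 with Ddit4 (0.02). Deviations also went with marker sums, with r of 0.77 and 0.80 for Psat1 and Phgdh with the astrocyte sum and of -0.62, -0.69 and -0.70 for Ddit3, Trib3 and Atf3. With the microglia and macrophage sum r was 0.71 for Atf3 and 0.60 for Sesn2, and Sesn2 had r of -0.77 with the neuron sum. Other values were near 0, such as 0.04 for Psat1 with the neuron sum and 0.01 for Atf4 with the microglia and macrophage sum.

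**Figure D4:**
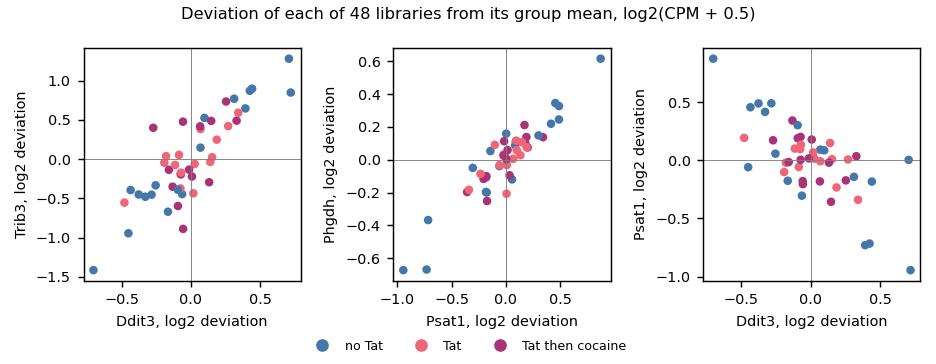
Deviation of each of the 48 libraries from the mean of its group, on the log2(CPM + 0.5) scale, for Trib3 against Ddit3, Phgdh against Psat1, and Psat1 against Ddit3. Each point is a library and colours mark cultures without Tat, with Tat, and with Tat followed by cocaine. The first pairs rise together (r of 0.84 and 0.92) and the last falls (r of -0.71), with the widest points from cultures without Tat.

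Between the groups the members were tied together differently. Over the 16 group means r was 0.11 for Ddit3 with Trib3, which moved together within groups, but -0.83 for Ddit3 with Psat1 and with Phgdh and 0.80 for Psat1 with Phgdh. Ddit4 and Chac1 had r of 0.76. The 16 means come from cultures with and without Tat, and no coefficient was computed within either set. Among genes with a like course over the 16 groups, Ddit3 was closest to Nlrc5 (r of 0.97), Slfn13 (0.96) and Itga5 (0.96), Psat1 to Sult1d1 (0.98), Nkain4 (0.97) and Gmnc (0.97), and Phgdh to Pea15 (0.97), Llgl1 (0.95) and Adal (0.95). Atf4 was closest to Arfgap1 (0.86), Atf3 to Angel1 (0.92), Ddit4 to Pdgfb (0.90), Trib3 to Arl1 (0.84), Asns to Ahi1 (0.93), Chac1 to Usp51 (0.84) and Sesn2 to Slc39a7 (0.83).

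**Figure D5:**
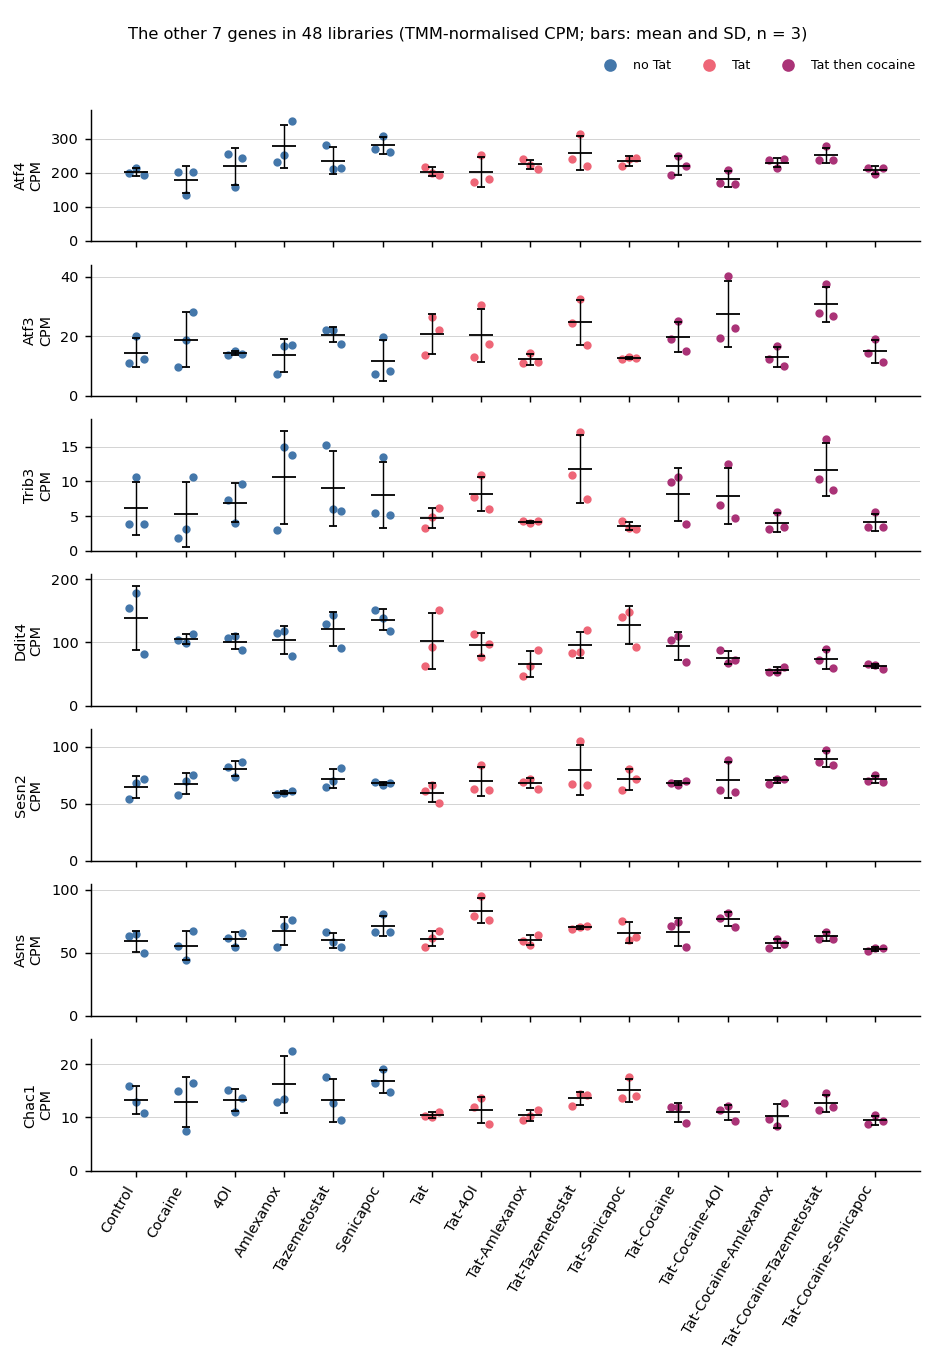
Atf4, Atf3, Trib3, Ddit4, Sesn2, Asns and Chac1 in each of the 48 libraries, as TMM-normalised CPM on linear axes that start at 0, with the 16 groups along the horizontal axis. Points are libraries and bars the mean and SD of 3. Atf4 lies at 133 to 350 CPM without Tat and 166 to 312 CPM with it, and Trib3 at 1.89 to 15.3 and 3.06 to 17.1 CPM, so the members of this set overlap between cultures with and without Tat.

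The promoters of 9 of the 10 members, all but Atf3, were found in RefSeq (GRCr8), and the 250 bases before the start were searched on both strands for TGATGNAA, the core of the C/EBP-ATF response element to which ATF4 binds. Trib3 and Chac1 held it, 2 of the 9, beside 3.40% of 33469 rat promoters. These 2 stretches are shown because they hold the element, while Trib3 was called in no comparison and Chac1 was called only in Tat over 5 backgrounds and in Tat-Amlexanox against Amlexanox. Each is printed on the strand of its gene, with the match in capitals, which is the motif read on the opposite strand. The Trib3 stretch is chr3:161275534-161275584 (minus strand, bases -51 to -1), with the match at -21 to -14, and the Chac1 stretch is chr3:126795934-126796001 (plus strand, bases -197 to -130), with the match at -167 to -160.
Trib3: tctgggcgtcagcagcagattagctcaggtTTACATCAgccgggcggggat
Chac1: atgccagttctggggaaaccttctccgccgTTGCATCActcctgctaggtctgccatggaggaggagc
A match of letters is a description of the window and not a measured site. Of the antioxidant response element, searched as TGACNNNGC (in 10.1% of all promoters) and TGAGNNNGC (14.2%), Sesn2 held the former and Psat1 the latter. The other 5 members searched held none of the 3 in this window.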

How the data were processed

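RNA was measured as polyA RNA with a strand-specific kit in 48 libraries, and groups were taken from the labels. The signal the authors deposited is CPM after TMM normalization, from uniquely mapped reads counted per gene with featureCounts (Subread 1.5.3) after Trim Galore 0.4.5, STAR 2.7.2 and SAMtools 1.5 (submitters' processing notes). The study's methods name the rat assembly Rnor_6.0 and the notes name mRatBN7.2, so no position of the deposited table is given, and promoters are those of GRCr8. The authors' 16 group means and the columns of their own comparisons (log2 fold changes, mean log2 CPM, likelihood ratios, p-values and FDR) were not used. The value of 1 read was taken as the most frequent value above 0 in a library, and 85.0 to 87.3% of values were whole reads within 0.02 read, so no count test was run.

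The 15890 genes that reached 0.5 CPM in 3 or more libraries were tested on log2(CPM + 0.5) with limma 3.58.1 in R 4.3.3 (lmFit with 1 mean per group over 48 libraries, eBayes with a trend, two-sided), with Benjamini-Hochberg adjustment over all genes of a comparison and a threshold of 0.05. Called means an adjusted p under 0.05, and intervals are 95% intervals of that fit. An exact permutation test of 3 against 3 libraries cannot go below p = 0.1 and was not used. Comparisons with the same reference cultures share those libraries. On simulated data for Tat against Control with 15690 genes, 97.0% of the genes given a 4-fold change were called, against 88.1% for a 2-fold and 49.3% for a 1.5-fold change. The changed genes were drawn from those above a set mean level, with independent noise and no other difference between groups. These shares are averages over such genes and do not carry over to a member with a wide spread, such as Trib3. The 10 members and all gene lists were chosen with earlier results of these data known. All 10 members are named, with Nqo1, Hmox1 and the up to 3 genes of a pathway list that changed most in a comparison. Other list genes named (Eif2ak3, Mthfd2, Psph and astrocyte markers) were chosen after their values were seen. Genes of a like course are the closest by Pearson's r over 16 group means. Deviations of samples with the same replicate number correlated above 0.1 in every pair in 5 of 16 comparisons (r from -0.779 to 0.814 in all), and there the numbers were taken to pair the samples. They were Tat-Cocaine, 4OI, Tazemetostat and Senicapoc against Control and Tat-Amlexanox against Tat. No label gives such a pairing. The replicate block is an effect of replicate number shared by all 48 libraries, and not a paired test of 2 groups.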

Additional observations from a re-analysis of the deposited data

Results flagged for a closer look

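The effect of Amlexanox on Psat1 differed between backgrounds. It was 1.44 ± 0.42 higher on the log2 scale in Tat-Cocaine cultures than in Control cultures (limma adjusted p = 0.0303), from a fall by 1.12 in the Control background to a difference of 0.32 on Tat-Cocaine. The value rests on the Amlexanox libraries with 139 and 92.4 CPM, and it was 1.076 without Amlexanox replicate 3 (adjusted p = 0.168) and 1.88 without Amlexanox replicate 1. The adjusted p was above 0.05 without any 1 of 7 of the 12 libraries, Control replicate 3, Tat-Cocaine replicate 1 or 2, Amlexanox replicate 2 or 3 and Tat-Cocaine-Amlexanox replicate 1 or 3.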

How the results depend on the processing

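Members kept their direction wherever they were called: of 3800 values under settings that kept every library of the groups or left out the 3 unusual ones, 3746 kept their side of the threshold, 30 lost and 24 gained a call, and none reversed. When 1 library was left out, 3601 of 3720 kept their side, 91 lost and 28 gained a call. Most of these values were not called to begin with, so the totals do not measure how stable the calls were. That is given call by call above. Counts of members called that moved by over 1.5 times are given here, and the cause was not tested.

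With the groups compared fitted alone, the count was 0 for Amlexanox against Control, Amlexanox and Tazemetostat over 3 backgrounds, the Amlexanox effect in Tat-Cocaine minus Control, Tat-Amlexanox against Amlexanox and Tat-Senicapoc against Senicapoc, 1 for Tat-4OI against Tat and Tat-Tazemetostat against Tazemetostat, and 2 for Tat-Cocaine-Tazemetostat against Tat-Cocaine and cocaine on Tat. With the 3 libraries with unusual marker sums left out, an alternative chosen after seeing the data, it was 0 for Amlexanox against Control, Amlexanox over 3 backgrounds and the Amlexanox effect in Tat-Cocaine minus Control, 1 for cocaine on Tat, and 2 for Tat-Cocaine-4OI and Tat-Cocaine-Tazemetostat against Tat-Cocaine and Tazemetostat over 3 backgrounds. With no filter it was 0 for Tat-Cocaine-Tazemetostat against Tat-Cocaine and Tat-4OI against 4OI and 1 for Tat-Amlexanox against Amlexanox, and with the filter of 2 CPM it was 1 for cocaine on Tat. Median-ratio scaling gave 0 for Tat-Cocaine-Tazemetostat against Tat-Cocaine and 1 for cocaine on Tat and for the Amlexanox effect in Tat minus Control, and quantile normalization gave 0 and 1 for the first pair. The replicate block gave 1 for Tat-Cocaine-4OI against Tat-Cocaine, cocaine on Tat and the Amlexanox effect in Tat minus Control, 2 for Amlexanox over 3 backgrounds and 3 for Tazemetostat over 3 backgrounds. The numbers were taken to pair the samples in parts of the pooled comparisons (Tat-Amlexanox against Tat, Tazemetostat against Control), and in the others listed samples share only a number. In the 5 comparisons where they were taken to pair, the block changed no call of a member other than Phgdh in Tat-Cocaine against Control.

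Leaving out 1 library gave 0 to 1 members called for Tat-Cocaine-4OI, Tat-Cocaine-Amlexanox and Tat-Cocaine-Senicapoc against Tat-Cocaine, cocaine on Tat and Tat-4OI against 4OI. It gave 0 to 2 for Tat-4OI against Tat, Amlexanox over 3 backgrounds and the Amlexanox effect in Tat minus Control. It gave 0 to 3 for Tazemetostat over 3 backgrounds, the Amlexanox effect in Tat-Cocaine minus Control, Tat-Amlexanox against Amlexanox and Tat-Senicapoc against Senicapoc, 0 to 4 for Amlexanox against Control, and 0 in each case for Tat-Cocaine-Tazemetostat against Tat-Cocaine.

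Over all genes, calls ranged over the settings from 1252 to 4253 for Tat against Control (3382 as reported), from 174 to 5865 for Tat-Cocaine-Tazemetostat against Tat-Cocaine (4554) and from 0 to 1724 for Cocaine against Control (32). Trib3, with as few as 40 reads in a library, is limited by depth most.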
